A study of Mus musculus with 2 samples.

Results

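The synaptic vesicle and SNARE genes are the genes that carry out and control vesicle fusion. They were taken by symbol as the synaptotagmins (Syt), syntaxins (Stx), vesicle-associated membrane proteins (Vamp), Snap proteins, syntaxin-binding proteins (Stxbp), complexins (Cplx), Rims, Sv2 proteins and synapsins, with Syp, Unc13a, Unc13b, Unc13c, Bsn, Pclo, Nsf, Cadps and Cadps2. The rule gave 75 of the 21887 protein-coding genes on nuclear chromosomes of the mouse assembly GRCm38.p6 (mm10). The data are CUT&RUN, in which an antibody tethers a nuclease to a chromatin protein and the DNA it releases is sequenced. There were 2 libraries, both made with nuclei from the hypothalamic paraventricular nucleus (PVN) of adult wild-type mice, 1 with an antibody against Otp, a homeodomain transcription factor, and 1 with IgG, which has no target. The labels call the cells neurons, while the protocol describes homogenised tissue and no sort. Peak lists hold no expression values, so neither the tissue nor the cell type could be checked against its markers. The labels give no number, sex or pooling of animals. With 1 library per antibody no test across samples was possible, and every share below is a description of these lists.

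SNARE proteins on a vesicle and on its target membrane zip into a bundle that pulls the membranes together. At the synapse the vesicle SNARE synaptobrevin (Vamp1 and Vamp2) pairs with a syntaxin such as Stx1a and with Snap25. Unc13 proteins prepare the SNAREs, complexins clamp them, synaptotagmins such as Syt1 sense calcium and Nsf takes the spent bundle apart. Other syntaxins and Vamp proteins serve the Golgi, endosomes and lysosomes of every cell. PVN neurons use the same machinery for fast transmitters and for the dense-core vesicles that hold their peptides.

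An Otp region lay at 26 of the 75 genes (34.7%), counting a region when its summit fell within 1 kb of either gene end. The share was 27.2% over all protein-coding genes. Members are long, with a median of 47.3 kb against 17.2 kb. The share among other genes varied with length, from 5.39% in the shortest decile to 35.2% between 24.6 and 35.8 kb and 27.2% in the longest decile. Other protein-coding genes of the same length decile gave 30.7%, which corresponds to 23 of 75 genes. Over the 59 members with a listed start site, 21 had a region (35.6%), against 39.2% of other genes of the same promoter CpG decile. The members' share thus lay above the background by length and below that by CpG content, and no excess or lack can be read from it. The IgG list had a region at the end of 0 of the 75 members, which allows a share of up to 4%, against 0.379% of all protein-coding genes. No member had an IgG region inside it either. The nearest IgG summit to any member end was 110 kb away, at Stxbp2.

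By role, the vesicle proteins had the highest share and the synaptotagmins the lowest. Of the 48 genes of the neuronal release machinery, in which all 17 synaptotagmins were placed by symbol, 15 had a region (31.2% against 30% by length). Of the 27 genes of general membrane traffic, 11 had one (40.7% against 31.9%). Within the first group, regions were at 4 of 8 vesicle proteins, 3 of 7 SNARE-binding regulators, 2 of 5 release SNAREs, 3 of 11 priming and active zone genes and 3 of 17 synaptotagmins. Length-matched shares gave 2.36, 2.14, 1.45, 3.25 and 5.21 genes for these groups. Groups by symbol also fell on either side: all 3 synapsins and 4 of 5 Snap genes had a region, against 0.881 and 1.65 genes by length. None of the 4 Rims, 4 Cplx, 3 Sv2 and 2 Cadps genes did, against 1.22, 1.26, 0.875 and 0.544 genes. Between these were 4 of 15 Stx, 4 of 8 Vamp, 5 of 7 Stxbp and 2 of 3 Unc13 genes. Length-matched shares gave 4.89, 2.32, 2.09 and 0.881 genes for them. The Snap genes with a region include Snap91, a clathrin adaptor counted above with the vesicle proteins and not with the SNAREs. Most roles and groups by symbol hold few genes, and neither were matched on promoter CpG content. Their order by share is thus a description only. Which groups by symbol to set side by side was decided after the counts were seen.

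**Figure D1:**
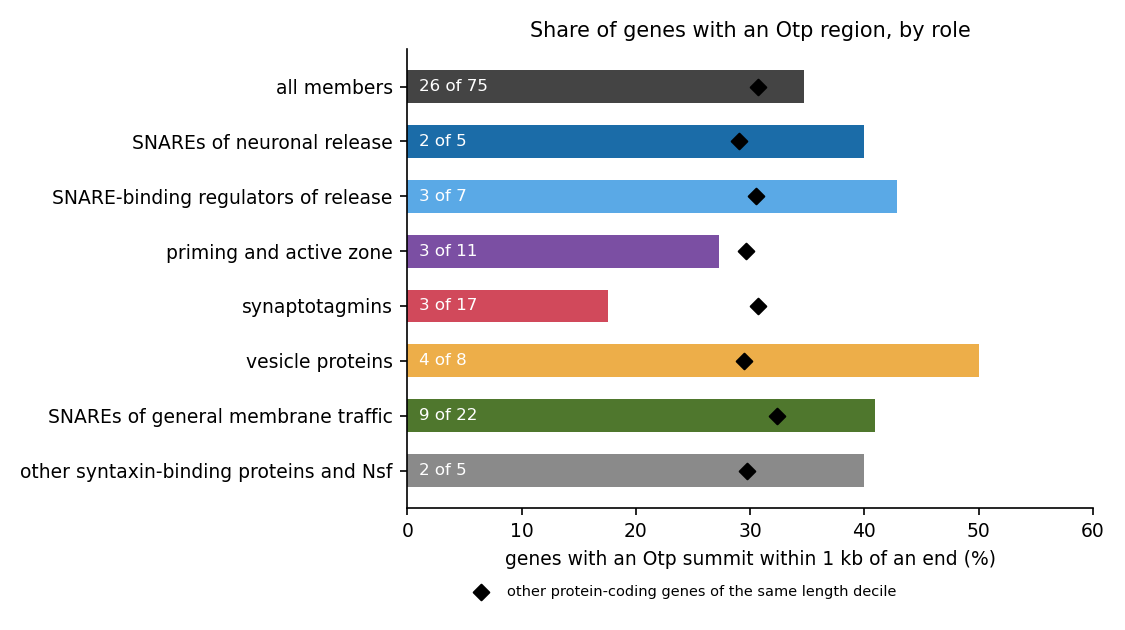
Horizontal bars give the percentage of genes in each role with an Otp summit within 1 kb of an end, with the counts printed in the bars. Diamonds give the same percentage for other protein-coding genes of the same length decile. Bars run from 17.6% for the synaptotagmins to 50% for the vesicle proteins, while the diamonds stay between 29% and 32.4%.

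The promoter windows below show where the summits lay in sequence. RefSeq windows of GRCm38.p6, 250 bases before to 50 bases after a start site, were at hand for 59 of the 75 members. An Otp summit lay inside such a window at 19 of the 59 (32.2%), against 24.9% of all 17492 protein-coding genes with a window. That background was matched on neither length nor CpG content. For regions at gene ends, the same 59 had 35.6%, against 39.2% of other genes of the same promoter CpG decile. The 19 include Stx4a and Unc13b, each counted by a summit over 1 kb inside the gene. The first 5 shown are those with the highest fold enrichment at the summit. They are Pclo (chr5:14514668-14514967, plus strand), Vamp1 (chr6:125215331-125215630, plus strand), Stxbp5l (chr16:37384909-37385208, minus strand), Vamp9 (chr5:99906015-99906314, plus strand) and Stx7 (chr10:24149039-24149338, plus strand). Syt1 (chr10:109010926-109011225, minus strand) and Syn1 (chrX:20920869-20921168, minus strand) were added after their values were seen, Syt1 because it encodes the main calcium sensor of fast release, and Syn1 for its motifs. Each runs 5′ to 3′ on the gene's strand, and capitals mark exact matches on either strand to any of the 8 motifs searched, which are spelled out after the windows except the NRF1 element, given there by name.
Pclo: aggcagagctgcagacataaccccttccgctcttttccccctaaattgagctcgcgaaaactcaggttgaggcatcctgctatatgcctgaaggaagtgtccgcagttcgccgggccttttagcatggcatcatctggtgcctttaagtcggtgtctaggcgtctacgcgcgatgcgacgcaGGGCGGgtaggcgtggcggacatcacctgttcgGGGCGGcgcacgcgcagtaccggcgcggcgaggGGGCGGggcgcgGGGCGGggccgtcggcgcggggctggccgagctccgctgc
Vamp1: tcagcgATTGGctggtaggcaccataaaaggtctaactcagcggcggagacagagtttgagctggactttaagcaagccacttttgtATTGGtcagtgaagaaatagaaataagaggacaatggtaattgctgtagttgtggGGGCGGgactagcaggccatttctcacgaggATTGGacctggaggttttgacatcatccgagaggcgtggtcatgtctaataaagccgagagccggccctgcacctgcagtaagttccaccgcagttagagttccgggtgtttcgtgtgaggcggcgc
Stxbp5l: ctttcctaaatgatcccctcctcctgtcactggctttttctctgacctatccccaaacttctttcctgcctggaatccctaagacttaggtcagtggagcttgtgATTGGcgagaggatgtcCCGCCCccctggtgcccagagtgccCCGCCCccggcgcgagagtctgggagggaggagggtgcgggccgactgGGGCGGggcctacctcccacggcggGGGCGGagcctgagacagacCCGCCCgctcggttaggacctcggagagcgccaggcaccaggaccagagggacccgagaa
Vamp9: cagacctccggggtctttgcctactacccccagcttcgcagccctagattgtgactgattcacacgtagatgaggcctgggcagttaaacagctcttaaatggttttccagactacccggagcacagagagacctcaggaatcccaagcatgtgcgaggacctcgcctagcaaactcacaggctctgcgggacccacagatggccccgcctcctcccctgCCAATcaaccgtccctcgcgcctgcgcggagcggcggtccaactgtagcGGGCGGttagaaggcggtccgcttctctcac
Stx7: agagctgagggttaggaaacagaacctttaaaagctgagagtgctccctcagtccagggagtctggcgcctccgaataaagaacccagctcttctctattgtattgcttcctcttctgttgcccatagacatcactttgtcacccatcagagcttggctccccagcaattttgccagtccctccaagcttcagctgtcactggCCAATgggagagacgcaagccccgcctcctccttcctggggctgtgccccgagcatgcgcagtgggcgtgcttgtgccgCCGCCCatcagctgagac
Syt1: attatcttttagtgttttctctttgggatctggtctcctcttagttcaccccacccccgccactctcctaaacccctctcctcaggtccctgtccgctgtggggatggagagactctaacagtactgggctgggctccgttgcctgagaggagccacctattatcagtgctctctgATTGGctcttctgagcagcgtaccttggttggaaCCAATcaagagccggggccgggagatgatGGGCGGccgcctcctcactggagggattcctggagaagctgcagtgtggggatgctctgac
Syn1: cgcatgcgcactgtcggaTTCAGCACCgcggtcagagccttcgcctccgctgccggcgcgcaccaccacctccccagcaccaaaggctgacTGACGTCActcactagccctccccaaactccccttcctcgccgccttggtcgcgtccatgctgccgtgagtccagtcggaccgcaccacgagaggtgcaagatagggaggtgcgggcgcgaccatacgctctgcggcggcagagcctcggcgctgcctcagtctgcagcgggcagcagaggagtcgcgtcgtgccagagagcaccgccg

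In these windows the start site is base 251. Counted from the first base, the summit lay at position 98 in Pclo, 21 in Vamp1, 194 in Stxbp5l, 228 in Vamp9, 199 in Stx7, 250 in Syt1 and 120 in Syn1. The summits of Syt1, Vamp9, Stx7 and Stxbp5l were thus within 57 bp upstream of the start, and that of Vamp1 was the farthest at 230 bp. The Pclo window held 35 CpG and 4 GC boxes, all of them downstream of the summit. The Syt1 window held 8 CpG, and the Stx7 window held 9.

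The homeodomain core TAATTA was in none of the 21 outermost windows of members with a region at the start. It was in 1 of 38 windows of members without a region, at Syt6, and in 4.69% of all 17492 windows. Among other genes with a region at the start it was in 2.27% of windows, so none in 21 is no sign of a lack. The GC box GGGCGG was in 17 of the 21 (81%), in 26 of the 38 (68.4%) and in 46.3% of all windows. The CCAAT box (CCAAT) was in 11 of the 21 (52.4%), in 6 of the 38 (15.8%) and in 39.2% of all windows. Over other genes with a region at the start, these 2 motifs were in 70.6% and 50.9% of windows. The full cAMP response element TGACGTCA was in the windows of Syn1 and Stxbp3 (2.33% of all windows). The NRF1 element was in those of Snap23 and Stxbp5, and also in those of Bsn and Stx12, which had no region (1.33% of all windows). The ETS motif CCGGAAGT was in none of the 59 (5.28% of all windows). Of the left and right parts of the REST element, by which many neuronal genes are silenced outside the nervous system, TTCAGCACC was in the windows of Syn1 and Unc13a (0.412% of all windows) and GGACAGC in those of Unc13a and Syt6 (6.81%). Both strands were searched for exact matches. The outermost windows of Stxbp5, Snap91, Vamp4, Unc13b and Unc13c did not hold the summit of the region at the start. Their motifs, among them the CCAAT boxes of Unc13b and Unc13c and the NRF1 element of Stxbp5, are not sequence under a summit. Motifs may overlap, and a match is not a measured site.

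Members' promoters were rich in CpG whether or not they had a region. The ratio of observed to expected CpG in the outermost window had a median of 0.759 (interquartile range 0.699 to 0.907) in the 21 members with a region at the start. It was 0.714 (0.55 to 0.895) in the 38 without. Among other protein-coding genes the medians lay further apart, at 0.809 with a region at the start and 0.375 without. Of the 41 members with a ratio of at least 0.6, 17 had a region (41.5%), against 47.8% of all protein-coding genes in that class. Of the 18 below 0.6, 4 had one (22.2%), against 9.71%. These 4 were Unc13c with a ratio of 0.23, Syt1 with 0.332, Stx7 with 0.38 and Stxbp5l with 0.568. The Unc13c window lay far from its region, whose summit was at −39465 bp from the nearest listed start site. The ratio of 0.23 thus does not describe the sequence at that region. The same holds for Unc13b (0.71, in the upper class), with its summit at −13104 bp. At the other extreme, Nsf (1.14), Cadps2 (1.13), Syt16 (1.06) and Syt9 (1.04) had CpG-rich windows and no region at an end.

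**Figure D2:**
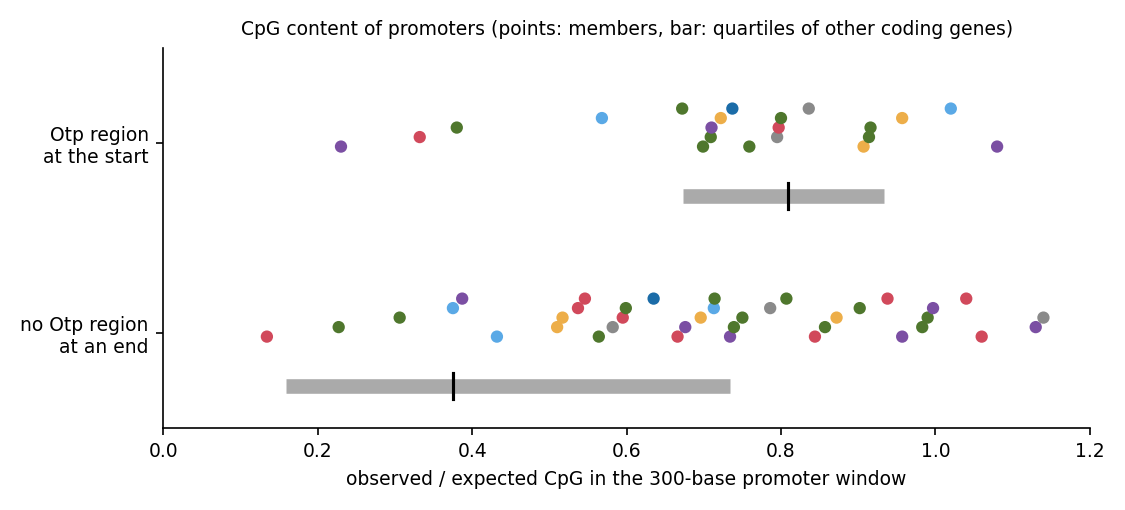
The observed to expected CpG ratio of the 300-base promoter window is plotted for 59 members, coloured by role as in the plot of fold enrichment, with an Otp region at the start (upper row) or no region at an end (lower row). Grey bars give the quartiles and black ticks the medians of other protein-coding genes, whose medians are 0.809 and 0.375, while those of the members are 0.759 and 0.714.

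The 26 genes had 28 regions at their ends, since Stx5a and Stxbp5 had 2 each. Fold enrichment is the authors' value, the summit signal divided by the background that their caller estimated, and tags are the reads or fragments piled up there, worked out from the fold and the deposited −log10 p. The 28 regions had a median fold enrichment of 7.74 (interquartile range 6.88 to 9.64) and a median of 16.5 tags. The 5499 regions at ends of other protein-coding genes had medians of 7.59 and 15 tags. A −log10 q of at least 10 was reached by 11 of the 28 (39.3%) and by 45.8% of the others. By gene, 11 of the 75 members had such a region (14.7%), against 13.4% of all protein-coding genes. The strength of the members' regions was thus near that of gene-end regions in general.

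**Figure D3:**
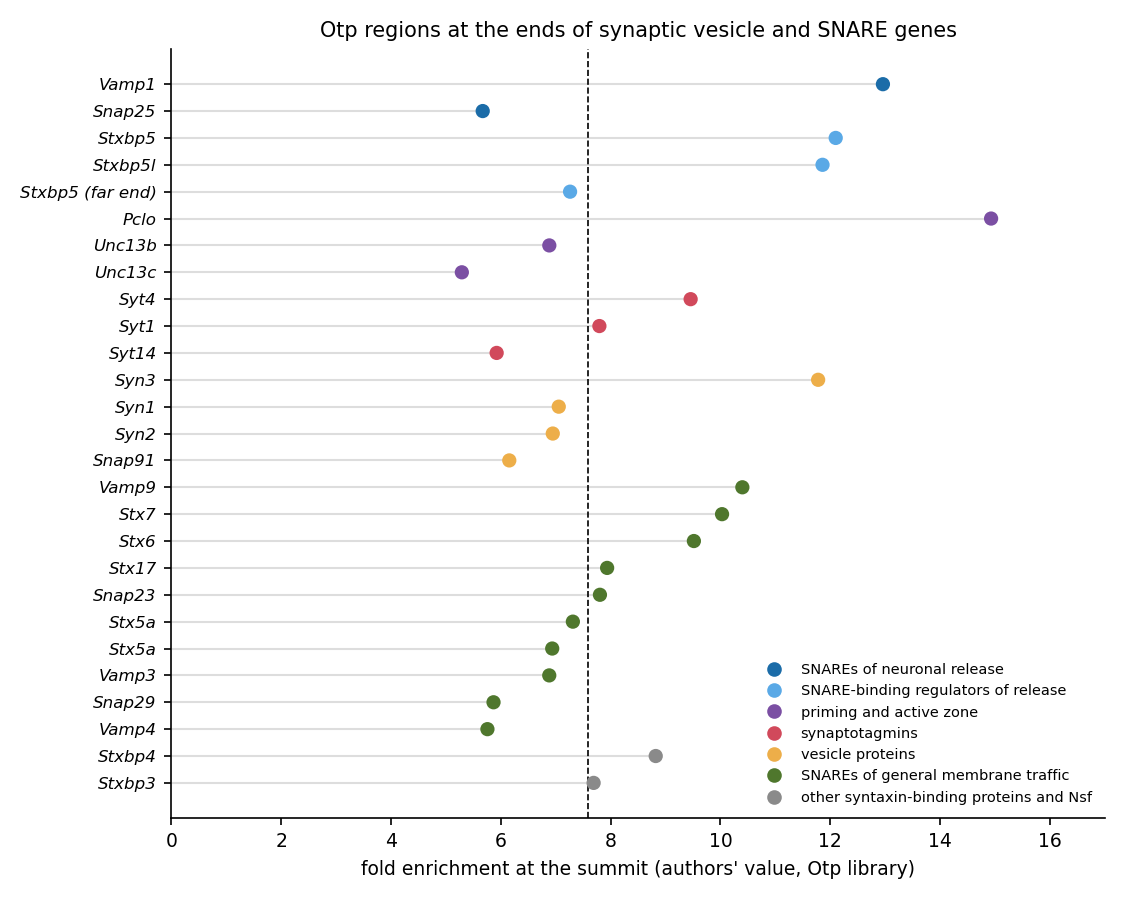
Each of the 27 points is 1 Otp region at a member end, at its fold enrichment in the Otp library, grouped and coloured by role, with the dashed line at the median of 7.59 for regions at other protein-coding genes. Pclo is highest at 14.9 and Unc13c lowest at 5.29.

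Among the SNAREs of neuronal release, Vamp1 and Snap25 had a region. Vamp1, a synaptobrevin prominent in the brainstem and spinal cord, had the second highest fold enrichment of all members, 13.0 with 33 tags (95% Poisson interval 22.7 to 46.3). Its region (chr6:125215148-125215581) was the widest, at 434 bp, and lay upstream of the gene. Snap25, the target-membrane SNARE of the synapse, had 13 tags (6.92 to 22.2) and a fold enrichment of 5.67, with the summit 105 bp outside its lower end. The intervals of these 2 genes do not overlap. Vamp2, the main synaptobrevin of the brain, and Stx1a, a syntaxin of the synaptic membrane, had none. The Otp summit nearest to Vamp2, 2638 bp beyond its upper end, lay 89 bp from an end of the clock gene Per1 and had 75 tags (59 to 94), more than any region at a member end. The summit nearest to Stx1a was 14479 bp away.

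Among the regulators that bind SNAREs, Stxbp5 and Stxbp5l had regions and the complexins did not. Stxbp5 and Stxbp5l encode tomosyns, which occupy syntaxin and restrain release. Stxbp5l had 29 tags (19.4 to 41.6), a fold enrichment of 11.9 and its summit on the first annotated base of the gene. Stxbp5 had 33 tags (22.7 to 46.3) and a fold enrichment of 12.1 at a summit 830 bp upstream of its start, next to the noncoding gene Gm46210. Its other region lay 498 bp past its far end, at a fold enrichment of 7.26 and 10 tags (4.80 to 18.4). This was the sole region at the far end of a member with a known strand. Cplx2 had a region 1805 bp inside the gene, of 12 tags, and the summits nearest to Cplx1, Cplx3 and Cplx4 were 32561 to 57395 bp from an end.

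Among priming and active zone genes, Pclo stood highest and the Rims, Bsn and Cadps genes had no region at an end. Pclo encodes piccolo, a giant scaffold of the presynaptic active zone. Its region (chr5:14514628-14514872) had 33 tags (22.7 to 46.3), a fold enrichment of 14.9 and a −log10 q of 30.6, which ranked 601 of 11379 in the Otp list. Bsn encodes bassoon, the partner scaffold of piccolo, and its nearest summit lay 1584 bp beyond its lower end and 52 bp from an end of Apeh. The priming factors Unc13b and Unc13c had 18 tags (10.7 to 28.4) and 7 tags (2.81 to 14.4), the latter the weakest of the 28. Unc13a, the main Munc13 of excitatory synapses, had none within 13029 bp of an end. Both Unc13 summits lay upstream of the outermost gene start, by 344 and 347 bp, and far from the listed start sites. The summit of Unc13b was 371 bp from an end of Fam214b. A separate Unc13b region, 12697 bp inside the gene with 15 tags (8.40 to 24.7), lay 63 bp upstream of a listed start site.

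The synaptotagmins with a region were Syt1, Syt4 and Syt14. Syt1 had 16 tags (9.15 to 26.0) and a fold enrichment of 7.80. Syt4, an activity-induced synaptotagmin of dense-core vesicles, had 20 tags (12.2 to 30.9) and a fold enrichment of 9.46, with the summit 34 bp beyond its upper end. Syt14 had 10 tags (4.80 to 18.4). The Poisson intervals of the 3 overlap. Syt2, the fast sensor that stands in for Syt1 in the hindbrain, Syt7, the slow sensor, and Syt9 and Syt10 had no summit nearer than 72262 bp to an end, and for Syt9 the nearest was 1385620 bp away. The other 10, Syt3, Syt5, Syt6, Syt8, Syt11, Syt12, Syt13, Syt15, Syt16 and Syt17, had none at an end.

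All 3 synapsins, which tether vesicles in the reserve pool, had a region at the start or, for Syn3, 13 bp inside its upper end. Syn3 had 23 tags (14.6 to 34.5) and a fold enrichment of 11.8, Syn2 had 15 tags (8.40 to 24.7) and Syn1 had 12 tags (6.2 to 21). Their intervals overlap, so no order among them can be read. Snap91, a clathrin adaptor of vesicle retrieval, had 12 tags at a summit 256 bp inside the gene. Synaptophysin (Syp), an abundant vesicle membrane protein, and the 3 Sv2 genes had none at an end. Syp had 1 of 9 tags inside the gene, 4361 bp from its upper end, and the summit nearest to Sv2b lay 4063 bp beyond its lower end.

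Of the 22 SNAREs that serve general membrane traffic, 9 had a region (40.9%, against 32.4% by length, which corresponds to 7.14 genes). Vamp9 was the highest with a fold enrichment of 10.4 and 17 tags (9.90 to 27.2). Stx7, a SNARE of late endosomes and lysosomes, had 10.03 and 17 tags, and Stx6, of the trans-Golgi network and endosomes, had 9.52 and 19 tags (11.4 to 29.7). Stx17, which fuses autophagosomes with lysosomes, had 7.94 and 11 tags (5.49 to 19.7). Snap23, the ubiquitous relative of Snap25, had 7.81 and 14 tags. Stx5a of the Golgi had 2 regions, of 18 and 17 tags, 101 bp upstream and 321 bp downstream of its outermost start. The first lay 98 bp from an end of 1700092M07Rik, nearer than to Stx5a, and the second lay 58 bp upstream of another listed start site of Stx5a. Vamp3, Snap29 and Vamp4 had fold enrichments of 6.88, 5.87 and 5.76. The other 13, among them Stx2, Stx3 and Stx4a of the plasma membrane, Stx8, Stx11, Stx12, Stx16, Stx18, Stx19, Snap47, Vamp5, Vamp7 and Vamp8, had none at an end. Vamp7 could not be assessed. The gene table places it in the first 3 Mb of chromosome X, and the Otp list held 0 regions in that stretch of any nuclear chromosome other than Y.

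Stxbp4 and Stxbp3 had a region among the remaining 5 genes, for which length-matched shares gave 1.48. Stxbp2, Stxbp6 and Nsf had none at an end. Stxbp4 had 19 tags (11.4 to 29.7) and a fold enrichment of 8.82, at a summit 29 bp from its own start and 19 bp from an end of Cox11, a cytochrome oxidase assembly factor. Stxbp3, a syntaxin-binding protein of the plasma membrane in most cells, had 14 tags (7.65 to 23.5) and a fold enrichment of 7.69. Of the 28 regions, 6 (21.4%) had an end of another protein-coding gene within 1 kb, and 2 lay nearer to it, those of Stxbp4 and Stx5a. Over all 5527 Otp regions at protein-coding gene ends, 17.7% had ends of more than 1 gene within 1 kb.

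Where strand was known, regions lay at the start of members, with a single region at a far end. With strand known for 59 members, 21 had a region within 1 kb of the start (35.6%, against 27.3% of all protein-coding genes with a strand). The 27.3% was not matched on length or CpG content. Other genes of the same promoter CpG decile had a region at either end in 39.2%, so no excess can be read. Only Stxbp5 had a region at the far end (1.69% against 1.61%), and it also had one at the start. Of the 22 regions at the start, 15 summits (68.2%) were upstream, and the median position was −45 bp. Regions at the start of other genes gave 67.4% and the same median. Snap25, Syn3, Syt4 and Vamp3 had a region but no listed strand, each within 150 bp of an end. By the nearest summit, Unc13c at 347 bp and Stxbp5 at 498 bp were the farthest members inside the 1 kb limit, and Stx4a at 1041 bp and Bsn at 1584 bp were the first outside it. The summit at Stx4a, of 13 tags (6.92 to 22.2), lay 124 bp upstream of a listed start site within its outer gene model.

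**Figure D4:**
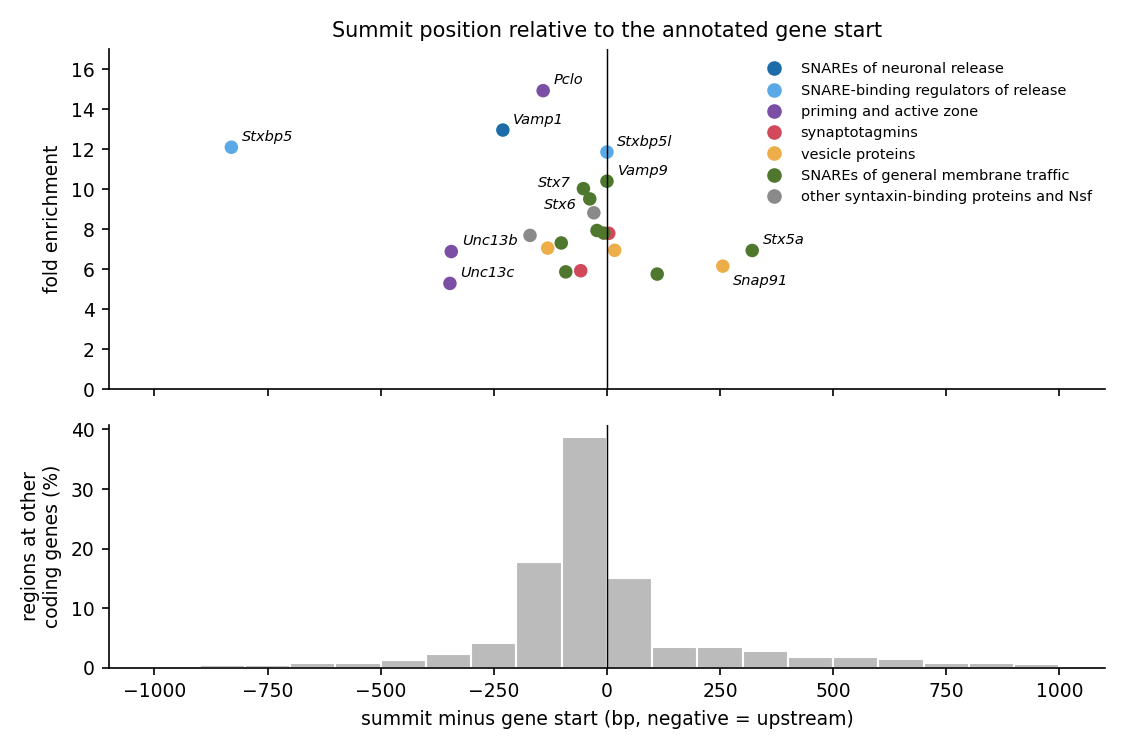
The upper panel plots the fold enrichment of the 22 Otp regions at the start of members with a known strand against the summit position relative to the gene start in bp (negative is upstream), coloured by role. The lower panel gives the percentage of 5153 regions at other protein-coding genes per 100 bp. Most points and most of the histogram lie just upstream of the start, and Stxbp5 lies apart at −830 bp.

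Inside members and over 1 kb from either end there were 23 Otp regions in 14 genes, 9 of which had none at an end. These 9 were Cadps, Cadps2, Cplx2, Nsf, Rims4, Stx3, Stx4a, Syp and Syt16. The density was 2.78 regions per Mb of inner gene length, against 3.09 in other protein-coding genes. Syt1 and Syt16 had 4 each, Cadps2, a factor for dense-core vesicle release, had 3 and Unc13c had 2. Rims4 had the strongest, at a fold enrichment of 9.11 and 21 tags (13.0 to 32.1). The weakest, in Nsf, had 6 tags (2.20 to 13.1) and a −log10 q of 2.07. The remaining 40 members had no Otp region at an end or inside.

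How many of the 28 regions stood above what the shallower IgG library could show depended on the scaling. The genome background was taken as the lowest local background that recurred among the called regions of a list. It was 0.512 tags in the Otp data and 0.0873 tags in the IgG data, and the weakest IgG region had 4 tags. Scaled by these background values, 4 IgG tags correspond to 23.5 Otp tags. Pclo, Vamp1, Stxbp5 and Stxbp5l exceeded that, 4 of 28 regions (14.3%, against 21.9% of regions at other genes), though the lower bounds of their intervals, 19.4 to 22.7 tags, did not. With the median IgG to Otp ratio at regions found in both lists (0.305), the limit was 13.1 Otp tags and 19 of the 28 exceeded it (67.9% against 61.6%). Below these limits a difference from IgG was not detectable at this depth. None of the 28 overlapped an IgG region, as did 1.2% of regions at other genes.

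**Figure D5:**
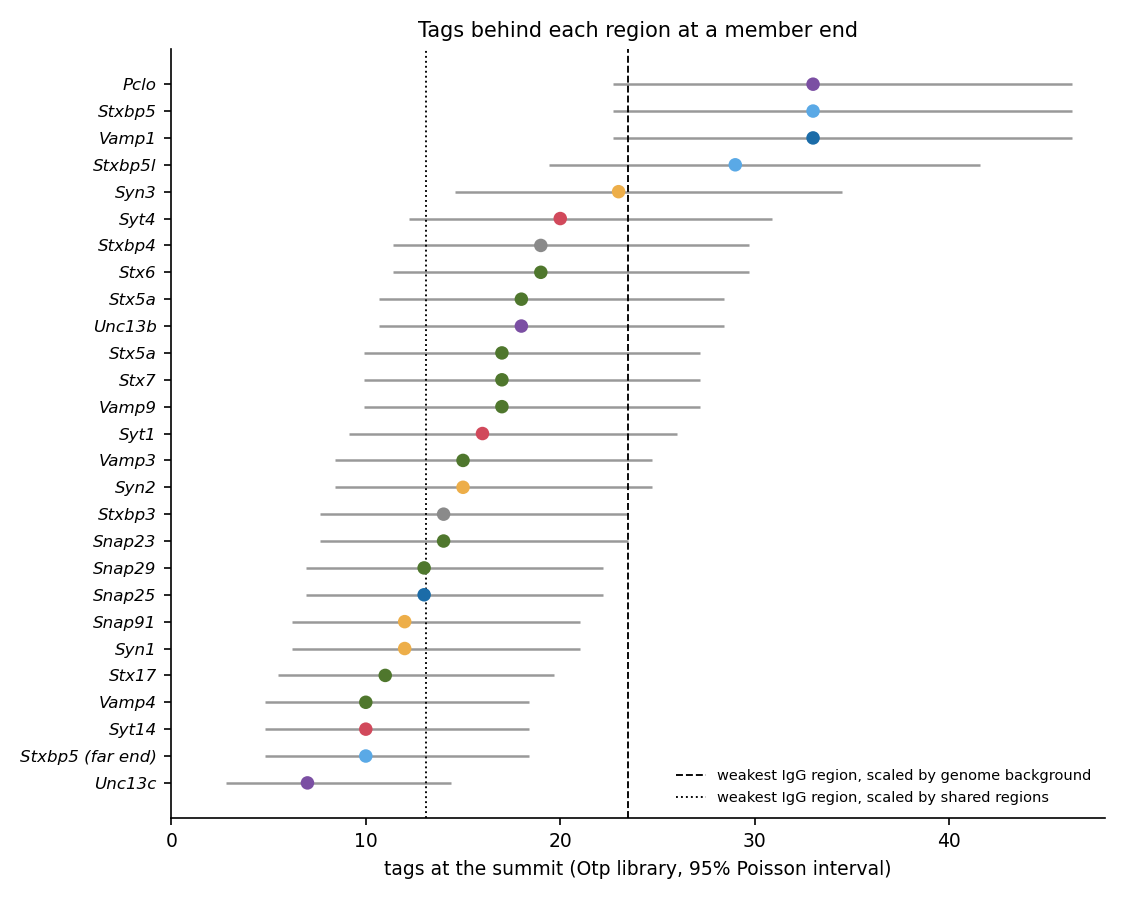
Points give the tags at the summit of 27 of the 28 Otp regions at member ends in the Otp library, with 95% Poisson intervals as lines, coloured by role as in the plot of fold enrichment. The dashed and dotted lines at 23.5 and 13.1 tags mark what the weakest IgG region corresponds to under the scalings by genome background and by shared regions. Pclo, Vamp1, Stxbp5 and Stxbp5l lie above the dashed line.

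Related genes of other names were counted the same way, beside shares matched on length and not on promoter CpG content. For the 59 members with a window, the background was 30.6% by length and 39.2% by CpG, so a length-matched share can be too low. Of 20 SNAREs, SNAP adaptors and Sec1-related proteins, 11 had an Otp region (55%, against 30.9% by length). The highest were Napa with a fold enrichment of 14.7 and 45 tags, Scfd1 with 13.7, Napb with 10.6 and Sec22a with 10.4. Napa and Napb encode the SNAP adaptors through which Nsf, itself without a region at an end, acts on SNAREs. Of 40 other genes of the vesicle cycle, 15 had a region (37.5% against 30.8%), led by the clathrin adaptor subunits Ap2a1 with 18.3 and 74 tags and Ap2s1 with 11.9, by Amph with 10.4 and by Sypl with 10.2. Ap2a1 and Rab3a also had an IgG region, of 9 and 7 tags. Of 15 markers of other cells, 0 of 5 for astrocytes, 1 of 5 for oligodendrocytes (Mbp, 10 tags) and 0 of 5 for microglia had an Otp region at an end. Length-matched shares gave 1.61, 1.62 and 1.49 genes for these lists.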

How the data were processed

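Per the submitters' processing notes, the authors used Trimmomatic, Bowtie2, Picard, SAMtools and MACS2 with mm10. For versions, settings, duplicates and any control library, the sources used here give no detail. The authors called regions per library. The deposited fold enrichment is a ratio over the local background. It and the deposited −log10 p and q were used as given. The deposited score repeats the −log10 q and was not used. Total depth is unknown.

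Pileups in tags follow from MACS2's definitions: p is the Poisson tail beyond the pileup, and fold is the pileup over the background after adding 1 to each. A whole number was accepted if it matched the −log10 p within 0.001 and all others missed by over 0.005, which gave 11182 of 11379 Otp and 262 of 291 IgG regions. Poisson intervals cover counting error only. Gene ends came from the RefSeq table of GRCm38.p6 and strand from its promoter windows. Length-matched shares average the shares of non-members in each member's length decile, out of 10. The CpG ratio is observed CpG times window length over the product of C and G counts.

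Members and lists were chosen with earlier results of these data known. Named were all members with a region (a few members enter the counts but are not reported individually here), the 12 of highest fold enrichment in full, those nearest to the 1 kb limit, those with regions inside, and up to 4 per related list. Alternatives were other windows, thresholds, overlap rules and length classes. Python 3.11.15, numpy 2.4.6, pandas 2.3.3 and scipy 1.17.1 were used.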

Additional observations from a re-analysis of the deposited data

How the results depend on the processing

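The count of 26 members lay within 24 to 35 under most settings. These were windows of 500 bp and 5 kb, a −log10 q from 5, a fold enrichment from 5, gene bodies and overlap in place of the summit. The nearest end alone and the removal of regions that overlap an IgG region were also among them. The fold limit and the IgG removal could not change the count, as the lowest member fold was 5.29 and no member region overlapped IgG. The wider window and gene bodies could only raise it. From a −log10 q of 10 it fell to 11 (14.7%), with 7 of the release machinery and 4 of general traffic. With pileups scaled to at least the weakest IgG pileup, an alternative chosen after seeing the data, it was 4. The length-matched share moved with the setting, to 28.3% within 500 bp, 38.3% within 5 kb, 26.1% and 15% from a −log10 q of 5 and 10, 29% from a fold enrichment of 5, 45.9% with gene bodies, 27.4% for the nearest end, 7.34% with scaled pileups, 27.2% without matching and 39.2% with matching on CpG ratio, also chosen after seeing the data. The members had 45.3% within 5 kb and 46.7% with gene bodies. The IgG count was 0 under each alternative run. No setting could have changed it, since the nearest IgG summit was 110 kb from any member end and none lay inside a member. A single library per antibody and unknown depth limit all comparisons. No paired analysis was possible because there is 1 library for each antibody, which also leaves no replicate to omit.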
